A study of Rattus norvegicus with 2 samples.

Results

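The noncoding RNA entries described here were those that lay at the locus of an annotated gene in a table of rat urine RNA. Members were chosen by identifier and position alone. An entry named NONRATG or NONRATT, the gene and transcript identifiers of a noncoding RNA database, was a member when its listed locus also held exactly 1 number-only gene ID and no assembled XLOC feature. The rule found 51484 entries (16637 NONRATG and 34847 NONRATT) of 90381 noncoding entries and 113011 listed features in all. They lay at 12637 loci, which held 76.7% of the 16484 number-only genes. The rat gene table of RefSeq (assembly GRCr8) matched 12582 of these genes, and 12482 of them were protein-coding. It placed 157 of the 12582 on another chromosome than the listed one.

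The 2 libraries came from urine of Sprague Dawley rats, labelled postnatal day 56, the age of 8 weeks at which they were used. In the UUO group (unilateral ureteral obstruction, a model of kidney fibrosis) the right ureter was tied off, and in the group labelled WT the operation was the same without the tie, so both groups were operated on. Urine was drawn from the ureter by catheter 2 weeks later, and the number of rats behind each library is not given. With 1 library in each group there was no replicate to check a difference against, and no p-value was computed. The table heads its value columns with the abbreviations UrRf and Urc, which were read as UUO and WT, and every direction would turn round if they were exchanged.

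Long noncoding RNAs are transcripts that are not translated. Many lie inside or opposite protein-coding genes, and some act on the gene they overlap. Short reads from a stretch that a gene and a noncoding model share do not name the model they came from, and a quantifier divides them among the overlapping models. The table gives no strand and no entry lengths, so a sense fragment of the gene, an antisense RNA and an intronic RNA could not be told apart. Levels are FPKM, fragments scaled to transcript length and to the library's mapped fragments. A share of FPKM is therefore not a share of reads.

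Sequences are available for the smallest genes of the set, the miRNA genes. There were 58 of them, and their own gene entries were listed at 0 in both libraries throughout. At 12 loci an overlapping noncoding entry was above 0, and at 46 no entry was. All 44 miRNA loci shorter than 200 bp were at 0, and the median listed span was 94 bp for the loci at 0 and 2220 bp for those above 0. The 8 loci with a noncoding sum of at least 1 FPKM in a library are shown by a mature miRNA of their gene, from RefSeq (GRCr8), 5′ to 3′, with the seed (bases 2 to 8, the part that pairs with targets) in capitals.
rno-let-7c-5p: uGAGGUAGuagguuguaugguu
rno-let-7i-5p: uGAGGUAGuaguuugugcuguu
rno-miR-3596b: aACUAUGCaaccuacuaccu
rno-miR-145-5p: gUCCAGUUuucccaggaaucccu
rno-miR-770-5p: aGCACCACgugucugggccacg
rno-miR-3564: uGGGAAAUgcaaagagggaag
rno-miR-568: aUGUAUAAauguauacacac
rno-miR-3593-3p: cUUCAACCuuaagggggccuca
The 2 let-7 miRNAs, regulators of growth and differentiation genes, share the seed GAGGUAG. The whole 20-base sequence of rno-miR-3596b is the reverse complement of a stretch of rno-let-7d-5p.

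At the let-7c-2 gene (Mirlet7c2, chr7:126300920-126301540, rn5) the noncoding sum was 16.3 FPKM in WT and 18.3 FPKM in UUO urine, and most of it was the entry NONRATG027032, at 14.0 and 16.6. At Mirlet7i (chr7:67000235-67000905) the sum was listed at 0 in WT and was 13.9 FPKM in UUO, of which NONRATG026701 made up 11.3. The let-7 seed family thus had 1 locus of nearly level value and 1 listed at 0 in WT alone. At Mir3596b (chr17:18476092-18476695) the sum went from 0 to 3.71 FPKM, and at Mir145, whose miRNA is a marker of smooth muscle, from 0 to 1.52. At Mir770 (chr6:142821656-142853216) 10 entries were above 0 in UUO and none in WT, with a sum of 11.6 FPKM. Mir3593 rose from 2.72 to 18.3 FPKM. The opposite order was seen at Mir3564, with 41.2 FPKM in WT and 3.78 in UUO, and at Mir568, with 17.7 and 3.99. All 8 loci span 603 bp or more, far longer than a mature miRNA, and no level of a mature miRNA was read from these values.

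The member loci had a median of 3 noncoding entries and at most 32. Their median span was 19444 bp, against 5095 bp for the 1107 genes that were alone at their locus. Of the member entries 22.01% were above 0 in WT and 71.4% in UUO urine. Far fewer reached 1 FPKM, 2731 entries (5.30%) in WT and 4260 (8.27%) in UUO. Taken by locus, the noncoding sum was above 0 at 41.4% of loci in WT and at 93.6% in UUO. At 787 loci the noncoding sum was 0 in both libraries, and 5725 of the 51484 entries passed the limit of 1 FPKM in a library. The 11870 loci that held noncoding entries and no gene showed the same order, with 21.2% and 67.3%. Values above 0 were low, with a median of 0.225 FPKM in WT and 0.314 in UUO. The steps between values of short assembled features in the table put 1 fragment on a 1-kilobase RNA at 0.542 and 0.497 FPKM. With this worth scaled by span alone, 12.7% of the entries above 0 in WT and 13.4% in UUO were below 1 fragment spread over their whole locus. Scaling by span alone sets the worth somewhat too high at loci longer than 1 kilobase. The same held for 0.564% and 4.38% of the overlapping genes. In bulk urine RNA, fewer cells of a type and less RNA per cell cannot be told apart.

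The member entries made up 9.89% of the FPKM of the whole table in WT and 17.9% in UUO urine, while the genes at the same loci made up 35.0% and 35.1%. A handful of entries carried most of the noncoding sum, since the 5 highest held 59.9% of it in WT and 66.7% in UUO. The highest in both libraries was NONRATG011216 at chr15:31571413-31571670, with 40816 FPKM in WT and 43553 in UUO. Its span is that of gene 29536, which RefSeq names Rpph1, with the synonym Rmrp, and classes as RNase MRP RNA. The name Rpph1 and this class belong to different RNAs, so which RNA the locus holds is uncertain and no function is given here. The gene's own entry was 0.589 FPKM in WT and 3731 in UUO. Read alone, the gene entry would be a steep rise, while gene and noncoding entry together came to 40817 and 47284 FPKM, a ratio of 1.16. Without this locus the noncoding sum over all members was 37095 FPKM in WT and 47658 in UUO. The deposited status flag of NONRATG011216 is LOWDATA rather than OK. The same flag stands at the entries with most of the noncoding sums given below for Rprml, Vamp8, Rab5a, Tbcc and Jun. At Arhgef39 NONRATG024018 has it too, while NONRATT044682 there and NONRATT030185 at Sort1 are flagged OK. The flag was not used to choose entries.

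The other loci with high noncoding sums differed in which side moved. At Arhgef39 (chr5:63519273-63526393), the gene was 6.64 FPKM in WT and listed at 0 in UUO. The 15 noncoding entries there summed to 3261 and 9392 FPKM. In WT nearly all of that was NONRATG024018, at 3254 FPKM. In UUO it was 6879 FPKM, and NONRATT044682 had gone from 0.599 to 2506. At Rprml (chr10:91476931-91477991) the noncoding sum was 1479 FPKM in WT and 0.00126 in UUO, with the gene at 0 and 2.96. Vamp8, a gene of vesicle fusion, had a noncoding sum of 616 FPKM in WT and 139 in UUO. Son, whose protein works in splicing, had 520 and 117. The gene of Vamp8 was at 136 and 81.3 FPKM and that of Son at 61.0 and 30.0. Sort1, the gene of the sorting receptor sortilin, had noncoding sums of 149 and 498 FPKM, nearly all in NONRATT030185. These loci thus kept a noncoding lead in both libraries, except Rprml, where the lead passed to the gene.

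**Figure D1:**
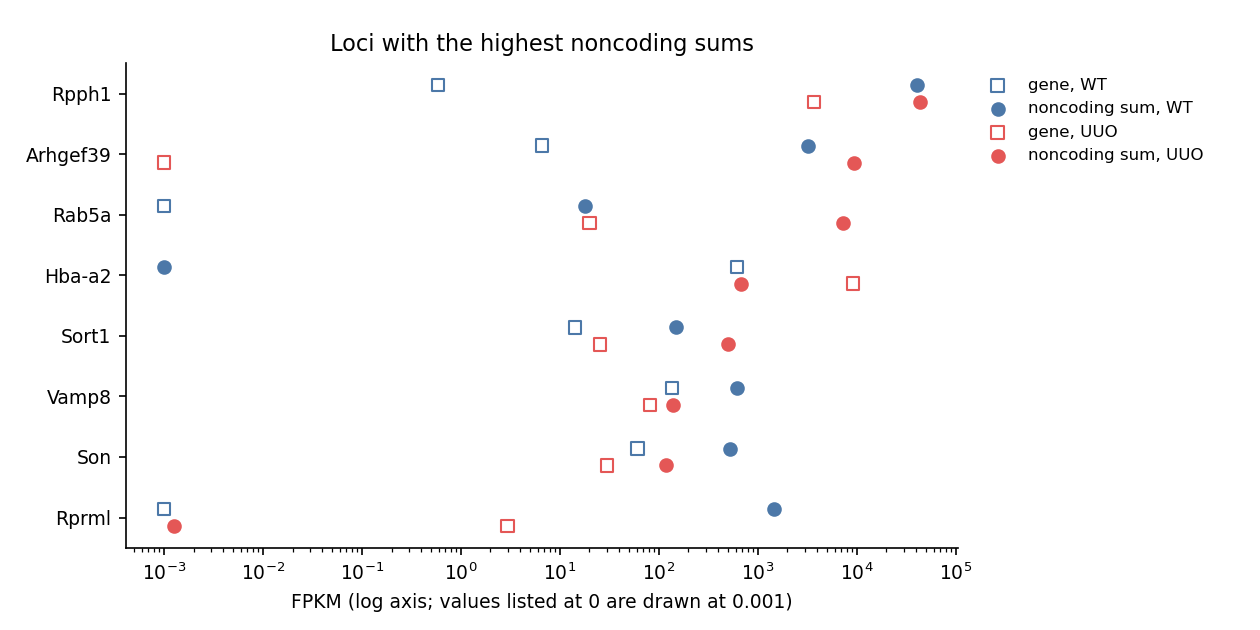
FPKM (log axis) of the gene (open squares) and of the summed noncoding entries (filled circles) in the WT and UUO libraries, at the 8 loci that were among the 5 highest noncoding sums of either library, of loci where gene and noncoding sum each reached 1 FPKM in a library; values listed at 0 are drawn at 0.001. The Rpph1 noncoding sum is level at 40816 and 43553, while its gene goes from 0.589 to 3731.

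How much of a locus the noncoding entries held was set against the gene within each library, which makes the share of a locus independent of any scaling between libraries. Which loci enter a median still depends on scaling, through the limit on low values. Among loci with a summed FPKM of at least 1, the median noncoding share was 1.20% in WT (quartiles 0 and 10.1%, 6798 loci) and 19.5% in UUO (quartiles 8.03% and 48.5%, 9291 loci). The share was 0 at 37.7% of those loci in WT and at 1.65% in UUO. Noncoding entries led the locus, holding over 50%, at 11.5% of loci in WT and 24.1% in UUO. Over the 6608 loci at the limit in both libraries the medians were 1.26% and 14.1%. There the share was higher in UUO at 5266 loci, lower at 1235 and equal at 107. With the highest single noncoding entry in place of the sum, the medians over all loci were 0.701% and 9.44%.

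**Figure D2:**
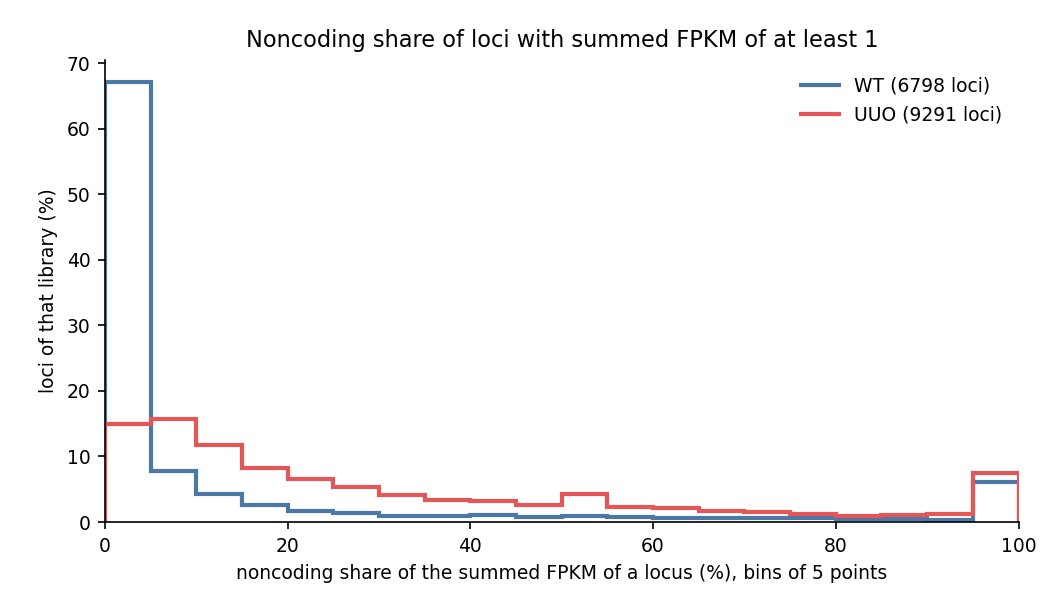
Percent of loci (vertical axis) by the noncoding share of their summed FPKM (horizontal axis, bins of 5 points), for loci with a sum of at least 1 FPKM in WT (6798) and in UUO (9291). WT loci pile up in the lowest bin, UUO loci spread over the lower range, and both have a small peak near 100%.

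The share grew with the number of entries at a locus in both libraries. From 2 entries to 8 or more, the median rose from 0 to 6.40% in WT and from 12.8% to 35.7% in UUO. By span, loci up to 2 kb had a median share of 0.0527% in WT and 50.1% in UUO, where 174 of 433 were loci with a single entry. With 2 or more entries, the loci of this span had 0.00259% and 15.7%. Loci over 100 kb had 2.68% and 29.6%. A higher share in UUO was thus found in each class of entry number from 2 up and in each class of span.

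**Figure D3:**
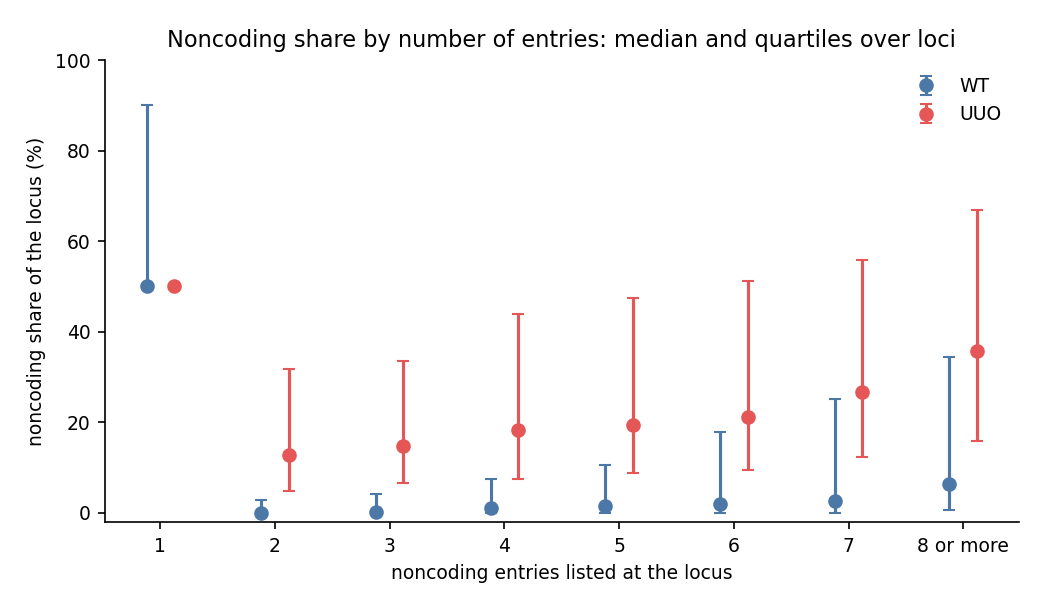
Median noncoding share of the locus (points) with quartiles over loci (bars) by the number of noncoding entries listed there, for WT and UUO loci with a summed FPKM of at least 1. Loci with 1 entry sit near 50% in both libraries, and from 2 entries up the UUO medians are above the WT medians.

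Loci with a single noncoding entry behaved differently. There were 668, and 541 of them belonged to olfactory, vomeronasal, taste and trace amine receptor genes, short genes expressed in sensory cells. Of the 541, only 1 had a locus sum of at least 1 FPKM in WT, and 154 had in UUO. That sum adds the gene and its entry, which were mostly near-equal, so lower values pass the limit. Over all 668 loci, the sum reached 1 FPKM at 18 in WT and 181 in UUO. Either value alone reached it at 18 and 48. The median noncoding share of single-entry loci was 50.1% in both libraries. Where the gene or the entry was at least 1 FPKM, they were within 1% of each other at 11 of 18 loci in WT and at 39 of 48 in UUO. The noncoding value was the higher of the pair at 18 of 18 and 47 of 48. They were over 10-fold apart at 5 of the 18 and 8 of the 48. Most such pairs thus gave a near copy of 1 value under 2 names. Near copies also occurred inside the noncoding sums. At loci with 1 NONRATG and 1 NONRATT entry, either at least 1 FPKM, the pair was within 1% at 79 of 129 loci in WT and 104 of 209 in UUO, and over 10-fold apart at 11 and 34, so that a sum can hold a value more than once.

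Differences between the libraries were taken as log2(FPKM + 1), UUO minus WT, which understates the change of low values, and a difference of 1 or more (2-fold) was called. Of 5709 noncoding sums with at least 1 FPKM in a library, 3097 (54.2%) were higher in UUO and 720 (12.6%) lower. Among all listed features 49.2% were higher and 25.5% lower. Noncoding sums at loci without a gene were higher at 59.5% and lower at 18.6%. The share of higher sums was thus between the 2 backgrounds, and that of lower sums was below both. The background of all listed features counts single features rather than sums, so it is an unlike measure. With the highest single entry of a locus in place of the sum, 1391 were higher and 845 lower. The genes of the same loci went the other way on balance: of 8010 measured, 2023 (25.3%) were higher and 2930 (36.6%) lower, close to the 25.7% and 36.5% of all number-only genes, most of which were these genes. The median difference was 1.04 for noncoding sums and −0.51 for genes.

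These directions depend on how the libraries are scaled. The median gene with at least 1 FPKM in both libraries had a difference of −0.81 as deposited. With the UUO values multiplied by 1.54, which makes the table's sums equal, it was −0.25, with 1.10 (median ratio) −0.69, with 0.105 (75th percentile of features above 0 in either library) −3.10, and with 6.34 (75th percentile of each library's own features above 0) 1.70. Noncoding sums called higher were 81.1% of the called ones as deposited, 91.7%, 84.1%, 4.48% and 98.7% under these scalings. Genes called higher were 40.8%, 62.1%, 45.2%, 2.77% and 95.8%. The gap between the sides of a locus moved less. At the 4727 loci where gene and noncoding sum both reached 1 FPKM in a library, the noncoding difference exceeded the gene's at 69.6% of loci as deposited and at 64.5% to 77.5% under the 4 scalings. The median gap was 1.06 as deposited and 0.78 to 1.95 rescaled.

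At those 4727 loci both sides were higher in UUO at 569 and both lower at 274. The gene was higher and the noncoding sum lower at 157, and the gene lower and the noncoding sum higher at 839. Of the 1839 loci where both sides were called, 843 (45.8%) moved the same way. Across the 4727 loci the differences had a Pearson r of 0.041 and a Spearman rho of 0.044, given as a description, since the loci share both libraries and the sides of a locus share reads. Under the 4 scalings the share moving the same way was 60.4%, 47.8%, 94.0% and 94.5%, which is a majority in all but the median ratio. For comparison, 127 loci with exactly 2 genes, both called, moved the same way at 66 (52.0%). The single-entry loci, with their near copies, moved together at 37 of 37.

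**Figure D4:**
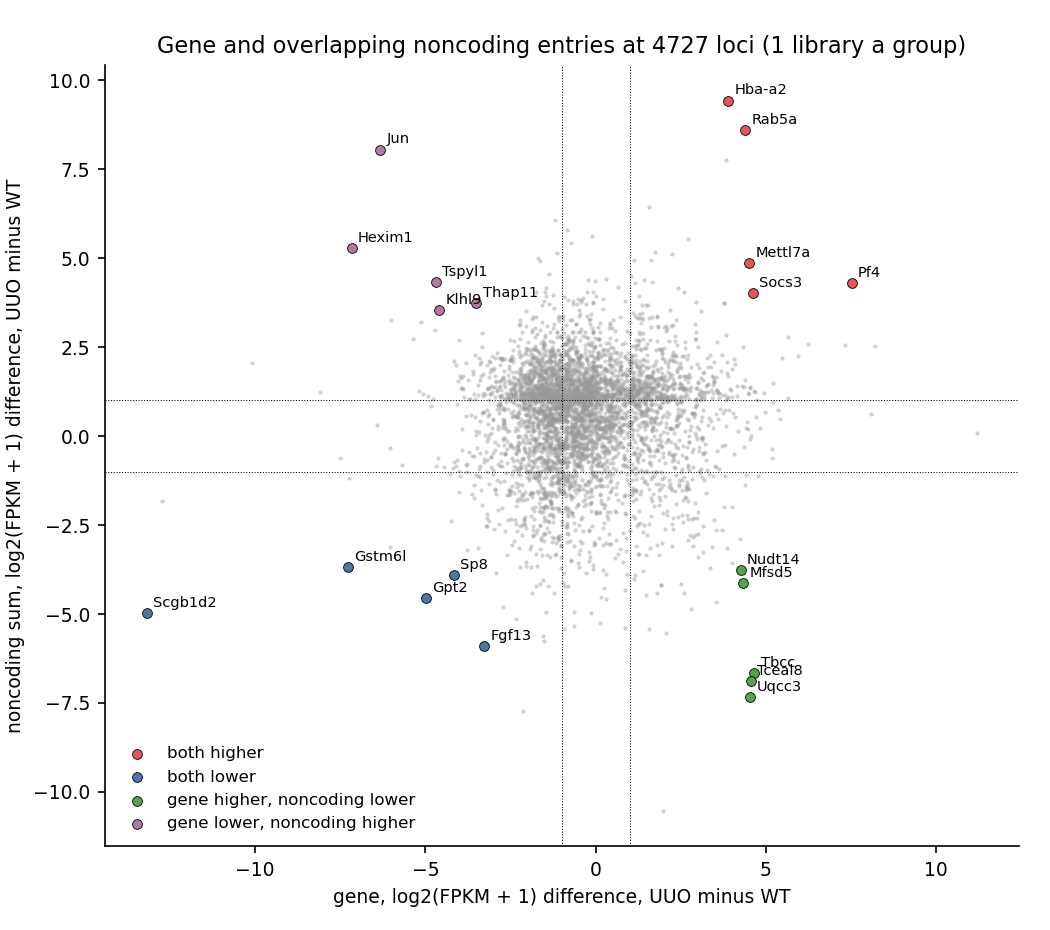
Difference of log2(FPKM + 1), UUO minus WT, of the gene (horizontal) and of the summed noncoding entries (vertical) at 4727 loci, 1 grey point each, with dotted lines at 1 and −1; coloured points are the 5 named loci of each corner. The cloud has no slope, with r of 0.041, and the FPKM as deposited centre it above 0 for the noncoding sums, which the scaling by 0.105 turns to below 0.

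The loci where both sides were much higher in UUO included genes of blood and of cytokine signalling. Hba-a2 (chr10:15484428-15485308, rn5), a haemoglobin alpha gene, was 620 FPKM in WT and 9167 in UUO, and its noncoding sum was 0 and 687. Pf4, the platelet chemokine gene, was 0 and 182 FPKM with a noncoding sum of 0 and 18.7. Socs3, which feeds back on cytokine signalling, was 0 and 23.4 with 0 and 15.2. Mettl7a, a gene of a methyltransferase-like protein, was 0 and 21.7 with 0 and 28.0. At Pf4, Socs3 and Mettl7a both sides were thus listed at 0 in WT. Rab5a, a gene of early endosomes, was 0 and 20.1 FPKM, and its noncoding sum of 18.0 and 7313 was almost wholly NONRATT018562 at 7299. RefSeq places Rab5a on another chromosome than the listed chr14:72907955-72910064, so the gene name of this locus is uncertain. Haemoglobin genes exist in near-identical copies, which share reads.

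The promoters of Hba-a2, Socs3 and Mettl7a are shown because both sides of these loci moved together, leaving out Rab5a for its uncertain locus. They are from RefSeq (GRCr8, chr10:15829089-15829388 and chr10:103694719-103695018 on the minus strand, chr7:133330728-133331027 on the plus strand), run from 250 bases before to 50 after the annotated start, and have the motifs found in capitals. The motifs searched on both strands were the core of the box near many start sites (TATAAA) and letters read by blood-cell factors (AGATAA), by SMAD proteins (CAGACA) and by STAT proteins (TTCNNNGAA). Only these spellings were searched. Other spellings around GATA, such as TGATAA and TGATAG in Hba-a2, were not searched and are left in lower case.
Hba-a2: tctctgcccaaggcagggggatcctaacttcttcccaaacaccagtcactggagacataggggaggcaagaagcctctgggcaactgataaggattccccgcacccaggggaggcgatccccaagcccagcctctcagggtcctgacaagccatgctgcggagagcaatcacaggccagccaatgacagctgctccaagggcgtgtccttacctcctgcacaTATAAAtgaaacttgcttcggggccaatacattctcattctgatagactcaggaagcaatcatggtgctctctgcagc
Socs3: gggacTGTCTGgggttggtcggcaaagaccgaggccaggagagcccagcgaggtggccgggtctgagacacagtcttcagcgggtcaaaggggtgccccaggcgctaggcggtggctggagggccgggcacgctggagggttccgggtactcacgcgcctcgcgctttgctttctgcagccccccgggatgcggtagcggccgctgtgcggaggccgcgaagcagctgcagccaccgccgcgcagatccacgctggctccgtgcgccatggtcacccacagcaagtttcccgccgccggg
Mettl7a: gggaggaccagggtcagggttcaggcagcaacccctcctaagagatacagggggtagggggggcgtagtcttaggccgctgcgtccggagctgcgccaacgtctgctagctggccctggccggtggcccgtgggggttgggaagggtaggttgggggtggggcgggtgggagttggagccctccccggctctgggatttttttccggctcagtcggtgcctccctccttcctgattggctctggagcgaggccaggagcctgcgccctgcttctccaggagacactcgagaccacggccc
Hba-a2 holds TATAAA at −28, and Socs3 holds the SMAD letters on the opposite strand (TGTCTG) at −245. Mettl7a holds none of the 4 motifs in this window. TATAAA stands in 14.3% of 27457 rat promoters of this length and CAGACA in 20.8%. The promoters of 7672 measured member genes held them at 7.96% and 16.5%.

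Both sides were much lower in UUO at Scgb1d2 (chr1:232544255-232547497), a gene of a small secreted protein, whose gene was 9354 FPKM in WT and listed at 0 in UUO, with a noncoding sum of 43.8 and 0.434. Gpt2, the mitochondrial alanine aminotransferase gene, went from 120 to 2.84 FPKM and its noncoding sum from 73.4 to 2.19. Fgf13, of the fibroblast growth factor family, went from 19.2 to 1.07 FPKM with 72.2 and 0.218. Sp8, a transcription factor gene, went from 22.4 to 0.299 with 19.1 and 0.346. Gstm6l, of the glutathione transferases, went from 154 to 0 with 12.95 and 0.0813. At these loci gene and noncoding entries fell side by side.

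At the loci of strongest opposite movement, 1 side was near 0 in WT and the other was at or near 0 in UUO, though not below 1 FPKM at Mfsd5 and Nudt14. Tbcc (chr9:15314034-15315217), a tubulin folding gene, was listed at 0 in WT and at 24.3 FPKM in UUO, while its noncoding sum was 100.8 and 0.00459. Tceal8 showed 0 and 22.4 FPKM against 117 and 0.00466, and Uqcc3, a gene of respiratory complex assembly, 0 and 22.3 against 161 and 0. Mfsd5 and Nudt14 followed the same order, with genes at 19.03 and 18.1 FPKM in UUO and noncoding sums of 41.9 and 28.8 in WT and 1.45 and 1.18 in UUO. In each of the 5, the locus sum as deposited was lower in UUO, and the gene entry alone would be read as a rise.

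The mirror image was seen at Jun (chr5:117957722-117960859), an immediate early transcription factor gene. The gene was 79.0 FPKM in WT and listed at 0 in UUO, while its noncoding sum was 0.00723 and 266. The UUO value lay in NONRATG024246 at 225 FPKM and NONRATT045077 at 41.7. Gene and noncoding entries together were 3.37 times higher in UUO as deposited, and on that scale the gene entry and the locus pointed opposite ways. Hexim1, whose protein restrains transcription elongation, was 143 and 0 FPKM with 0.0287 and 38.9. Tspyl1 was 25.05 and 0.000706 with 0.00278 and 19.1, Klhl9 24.8 and 0.0713 with 0.0355 and 11.1, and Thap11 10.3 and 0.000309 with 0.00635 and 12.5. The locus sums of Tspyl1 (25.05 and 19.1), Thap11 (10.3 and 12.5) and Klhl9 (24.8 and 11.2) moved far less than either side. All 20 loci named for moving together or apart kept the sign of both sides under the 4 scalings. They were chosen for the largest differences in these same data, so this followed from the choice and is no check of them. The sign of the locus sum was kept at 11 of the 20.

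Over all opposite loci the locus sum stayed within 2-fold at 390 of 996 (39.2%), against 39.1% of all 9481 measured loci and 48.4% of the 4727. It did at 92 of 157 (58.6%) with the gene higher and the noncoding sum lower, where 99 genes were at 0 in WT and the median noncoding share was 100% in WT and 21.2% in UUO. Where the gene was lower and the noncoding sum higher, it did at 298 of 839 (35.5%), and 541 of these noncoding sums were at 0 in WT. At loci moving the same way the sum is bound to pass 2-fold.

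A change of the leading side can be read without scaling the libraries, other than through the limit on low values. Of 6608 loci at the limit in both libraries, the gene led in both at 5314 and the noncoding sum in both at 370. The lead passed to the noncoding sum at 541 and to the gene at 383, together 14.0%. Where it passed to the noncoding sum, the median difference was −1.50 for the gene, 1.48 for the noncoding sum and −0.51 for the locus. Where it passed to the gene, the medians were 1.61, −1.56 and −0.32. The locus sum stayed within 2-fold at 300 (55.5%) and 156 (40.7%) of these loci. Loci that kept their lead did so at 54.9% where the gene led and 51.9% where the noncoding sum led.

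Gene entries therefore did not always stand for their locus. Of the 2023 genes called higher, the locus sum was higher at 1786, within 2-fold at 184 and lower at 53. Of the 2930 called lower, it was lower at 2362, within 2-fold at 559 and higher at 9. Genes at 0 in WT and at least 1 FPKM in UUO numbered 1513. At 577 of them a noncoding entry was above 0 in WT, and at 228 the noncoding sum was at least 1 FPKM there. Genes at 0 in UUO and at least 1 FPKM in WT numbered 121. At 116 of them a noncoding entry was above 0 in UUO, and at 39 the sum reached 1 FPKM. Over all 12637 member loci the noncoding sum was above 0 at 41.4% in WT and 93.6% in UUO. It was at least 1 FPKM at 2189 and 5343 of them. The counts beside genes at 0 were near these shares or below them, so they set these genes apart in no way.

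Immediate early and stress genes, which cells switch on within minutes of a stimulus, were followed as a set of related loci. Of 27 measured loci 20 had a higher noncoding sum in UUO and 1 a lower one, against 32.7% and 7.59% of all 9481 measured loci. The genes were higher at 12 and lower at 5, against 21.3% and 30.9%. Both sides were higher at 9 loci and lower at 1, and the gene was lower with the noncoding sum higher at 3. The locus sums were higher at 16 and lower at 3, against 33.6% and 27.3% of all measured loci. When the UUO values were multiplied by 0.105, they were higher at 0 and lower at 19. At 19 of the 27 loci (70.4%, against 47.4% of all) the noncoding sum went from 0 in WT to a value above 0 in UUO. It summed over the list to 87.4 FPKM in WT and 517 in UUO.

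Within the list, Fos had a noncoding sum of 0 in WT and 13.01 FPKM in UUO beside a gene of 54.6 and 100.7. Ier2 had 0.0309 and 30.9 beside 12.5 and 40.9, and Ier5 had 0.838 and 15.2 beside 33.5 and 262. Junb (chr19:37068594-37070497) was led by its noncoding entries in WT, with 57.2 FPKM and the gene at 0. In UUO the gene was 268 FPKM and the noncoding sum 87.9, so that the locus rose 6.22-fold. Egr1 was alike in WT, with 13.04 FPKM of noncoding entries and the gene at 0, and in UUO the noncoding sum of 20.02 still led over the gene at 4.64. Atf4, the stress response factor, was the highest of the list in WT. Its gene was 904 and 111 FPKM and its noncoding sum 15.5 and 6.94. Jund, at 421 and 272 FPKM, had a noncoding sum of 0 and 1.94. Noncoding entries led 2 loci of the list in WT, Junb and Egr1, and 6 in UUO, among them Jun and Egr1. Another of the 6 was the locus listed as Mcl1, with 5.79 FPKM beside a gene of 0.293. That locus (chr3:151715228-151922312) spans 207084 bp, against 3137 bp for Jun, so its gene name is uncertain.

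**Figure D5:**
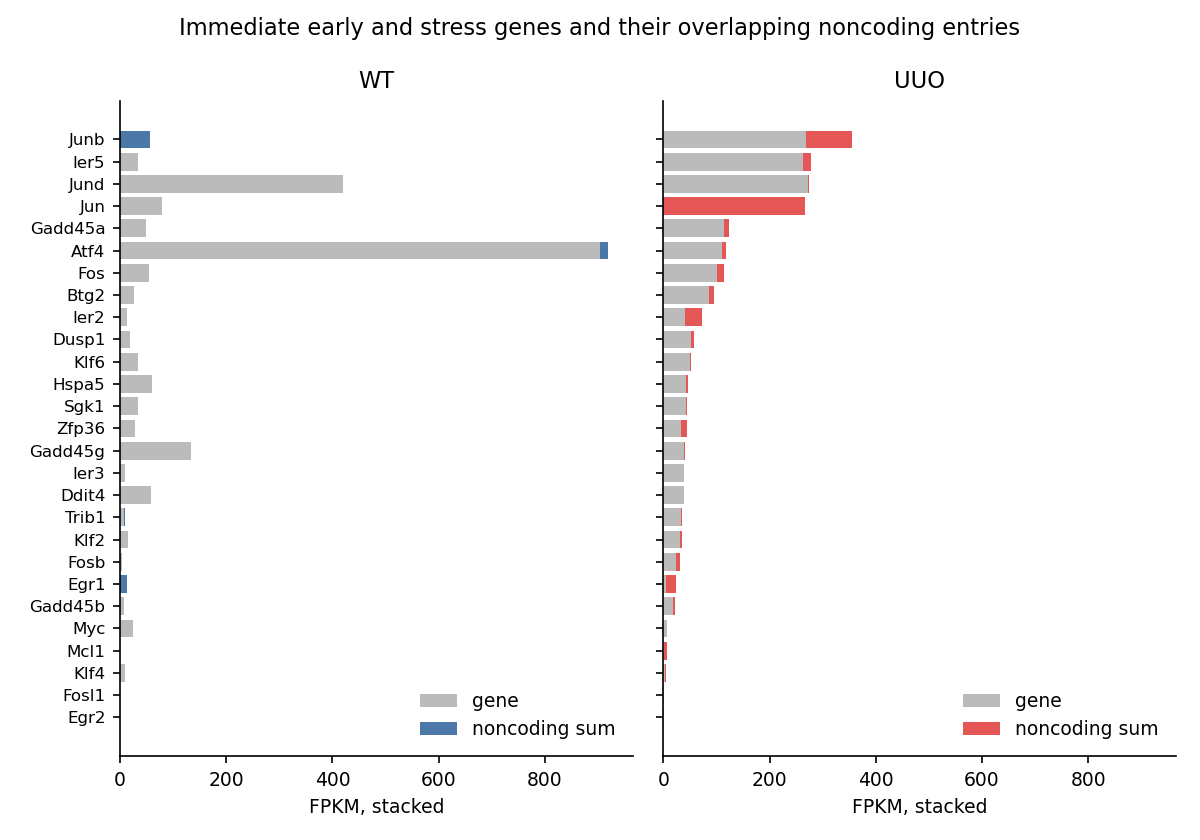
FPKM of the gene (grey) and of the summed noncoding entries (coloured), stacked, at 27 immediate early and stress gene loci in WT (left) and UUO (right). Jun is all gene in WT and all noncoding in UUO, and Junb is all noncoding in WT and mostly gene in UUO.

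Among 22 loci of injury, inflammation and chemotaxis 18 genes were higher and 0 lower, and 10 noncoding sums were higher (45.5%, against 32.7% of all measured loci) and 1 lower. The genes higher were 81.8%, against 21.3%. Ccl3, a chemokine gene, was 0 and 294 FPKM with a noncoding sum of 0 and 4.80, and Krt8 and Krt19, epithelial keratins, had noncoding shares below 5% in both libraries. Among 20 fibrosis and matrix loci 11 genes were higher and 0 lower, with 5 noncoding sums higher and 1 lower. The genes higher were 55.0%, against 21.3% of all measured loci, and the noncoding sums higher 25%, against 32.7%. The lower one was Ccn2, a matrix growth factor gene, at 4.06 and 4.92 FPKM for the gene and 12.5 and 0 for the noncoding sum. Ctsd, a lysosomal protease gene, was 137 and 305 FPKM with 25.9 and 18.5. Atf3 was 15.3 and 38.5 with 0 and 0.679, and Tgfbr2, a TGF-β receptor gene, 18.9 and 26.7 with 0.396 and 1.014. With the UUO values multiplied by 0.105, 7 injury genes were higher and 8 lower, and 0 and 11 fibrosis genes. The noncoding sums were then higher at 0 and lower at 3 loci of each of the 2 lists, and at 4 and 3 of the immediate early list.

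Among 24 kidney tubule loci 5 genes were higher and 9 lower, and 8 noncoding sums were higher and 2 lower. These counts were near those of all measured loci, with genes at 20.8% and 37.5% against 21.3% and 30.9%, and noncoding sums at 33.3% and 8.33% against 32.7% and 7.59%. Fxyd2, a subunit regulating the sodium pump, was 1272 and 720 FPKM with a noncoding sum of 57.8 and 23.04. Miox was 925 and 245 with 16.8 and 1.09, and Pck1, of glucose synthesis, 627 and 196 with 0 and 0.623. Slc4a4, a bicarbonate transporter gene, was singled out after its values were seen: gene 0 and 3.70 FPKM, noncoding sum 0.105 and 37.6. Among 70 ribosomal protein and translation loci 13 genes were higher and 23 lower, and 25 noncoding sums were higher and 8 lower. These were again near all measured loci, at 18.6% and 32.9% for genes and 35.7% and 11.4% for noncoding sums. Rpl41, at 2418 and 3375 FPKM, had a noncoding sum of 24.1 and 29.1, Eef2, at 2324 and 999, had 28.9 and 34.4, and Rplp0 had 2.25 and 2.55. The direction of the tubule and ribosomal genes depended on scaling, with 15 tubule genes higher and 2 lower, and 52 and 0 ribosomal ones, when UUO values were multiplied by 6.34. Among 5 noncoding genes and snoRNA hosts, Terc, the telomerase RNA, was 25.4 and 88.2 FPKM with a noncoding sum of 0.0686 and 0.201. Snhg4 had its gene at 0 in both libraries and a noncoding sum of 0 and 3.31.

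Loci of other cells in urine were set beside these. The summed FPKM of 14 red cell and platelet loci was 2731 in WT and 35587 in UUO. Their genes were higher at 11 loci (78.6%, against 21.3% of all measured loci). Their noncoding sums were higher at 6 (42.9%, against 32.7%) and lower at 1 (7.14%, against 7.59%). Hba-a1 was 1576 and 22399 FPKM with a noncoding sum of 0 and 214, and Hbb-b1 64.0 and 1150 with 0 and 1.66. For 20 leukocyte loci the sum was 141 and 397 FPKM. There 12 genes were higher (60%, against 21.3%) and 1 lower (5%, against 30.9%), and 11 noncoding sums higher (55%, against 32.7%). The genes of the highest loci of this list were B2m, at 50.7 and 92.9 FPKM, S100a9, at 0 and 71.7, and Cd74, nearly level at 70.0 and 64.8. Ptprc, the pan-leukocyte gene, named after its values were seen, was 0 and 3.33. For 17 urothelium and epithelium loci the sum was 2675 and 2815 FPKM, with 3 genes higher and 3 lower, 17.6% each. Noncoding sums were higher at 10 of them (58.8%, against 32.7%). The 4 male accessory gland loci summed to 177 and 5.92 FPKM, in WT all in Scgb2a1, whose noncoding sum was 0 and 0.183. Scgb1d2, which by its symbol is of the same gene family, was not on this list. Its locus summed to 9398 and 0.434 FPKM, so the list sum leaves out a far larger locus. The kidney tubule list itself went from 4244 to 1888 FPKM. Multiplied by 0.105, the UUO values gave 5 higher and 2 lower red cell and platelet genes, 4 and 4 leukocyte genes, 0 and 15 urothelium and epithelium genes, and 2 higher and 8 lower noncoding sums in the last list. The part of these cells in the higher noncoding shares was not tested.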

How the data were processed

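Per the file headers, the authors deposited 1 FPKM value per feature and library in a Cuffdiff gene table. Submitters' processing notes name build rn5, Bowtie2 2.0.6, TopHat2 2.0.9, Cufflinks 2.1.1 and Cuffdiff 2.1.1. The methods describe ribosomal RNA removal and stranded libraries for kidney, and a column kit for urine RNA, where the labels give Trizol. Columns of the authors' log2 ratio, test statistic, p-value and q-value were not used. No read counts were used. Values above 0 of short assembled features alone at their locus fell on whole fragments within 0.1 for 93.5% of 186 in WT (2116000 fragments) and 99.4% of 3530 in UUO (2440000). Their median was 22 fragments in WT and 9 in UUO.

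Noncoding FPKM was summed per listed locus and set beside the gene's, with a limit of 1 FPKM and a pseudocount of 1 (Python 3.11.15, pandas 2.3.3). The code was tested on simulated data. Named loci were the 5 highest noncoding sums per library, the 5 strongest of each direction pair by the smaller difference, and up to 3 of each gene list by locus FPKM, with further list members named after their values were seen. Members, lists and rules were chosen with earlier results of these data known. RefSeq (GRCr8) gave symbols, classes and sequences, and its coordinates only for printed promoters. The alternatives tried were other limits, pseudocounts, folds, scalings, single entries and subsets of loci.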

Additional observations from a re-analysis of the deposited data

How the results depend on the processing

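No paired analysis was possible because WT and UUO urine gave a single library apiece, and no replicate was there to leave out. Of 124 combinations of result and alternative, 76 stayed within the limits set (1.5 times the reported value, or 0.1 for a correlation). The cause of the other shifts was not tested.

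The median noncoding share changed with the highest single entry in place of the sum, to 0.701% in WT and 9.44% in UUO, at loci with exactly 1 noncoding entry, to 50.1% in both (50.09% in WT and 50.13% in UUO), and in UUO with a limit of 5 FPKM, to 11.2%. At loci with a sum of at least 1 FPKM in both libraries, an alternative chosen after seeing the data, it was 1.26% and 14.1%. In each alternative run the UUO share was the higher.

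A pseudocount of 10 left 139 higher and 307 lower noncoding sums and 289 higher and 1444 lower genes. A 4-fold limit left 687 and 318 noncoding sums and 843 and 967 genes. A limit of 5 FPKM left 467 higher noncoding sums and 828 higher genes, the highest single entry 1391 higher noncoding values, and loci with exactly 1 noncoding entry 34 and 7 noncoding sums and 34 and 5 genes.

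Equal sums gave 5469 higher noncoding sums and 1768 lower genes. The 75th percentile over features above 0 in either library gave 86 and 1834 noncoding sums and 175 and 6136 genes. The 75th percentile of each library's own features above 0, chosen after seeing the data, gave 10895 and 144 noncoding sums and 7450 and 329 genes.

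The share of called loci moving the same way, 45.8% as reported, passed 50% with a pseudocount of 10 (70.1%), equal sums (60.4%), the 2 percentile scalings (94.0% and 94.5%), a 4-fold limit (52.3%), a limit of 5 FPKM (60.0%), the highest single entry (51.8%) and exactly 1 noncoding entry (100%). Under the 2 percentile scalings nearly all calls go 1 way, so that even unrelated sides would agree at most loci. The correlation moved at loci with exactly 1 entry, to a Pearson r of 0.471 and a Spearman rho of 0.858.

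The leading side passed to the noncoding sum at 165 loci and to the gene at 175 under the 75th percentile over either library, at 227 and 222 with a limit of 5 FPKM, and at 0 and 0 with exactly 1 entry. It passed to the noncoding side at 231 with the highest single entry, and to the gene at 749 without a limit. Depth limits the lowest values, since some noncoding entries were below the worth of 1 fragment, and an FPKM of 0 can be a failed estimate.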
